A study of Bos taurus with 39 samples.

Results

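MicroRNAs (miRNAs) of bovine oocytes taken at 0 h of in vitro maturation were compared with those of control oocytes matured for 1, 6 or 22 h. The members were chosen by their labels: 3 libraries of control oocytes at a maturation time of 0 h, and 3 libraries of control oocytes at each later time, 12 of the 39 libraries of the series. The labels name no genotype or breed, and all 4 groups were oocytes under the control treatment, that is without the gap junction blocker used elsewhere in the series. Control oocytes at 1, 6 and 22 h matured inside their cumulus-oocyte complex (COC), the oocyte with its layers of cumulus cells, in serum-free medium with epidermal growth factor. COCs were aspirated from slaughterhouse ovaries, and the oocytes of several COCs were pooled for each library of the later times. The ages of the animals are not given in the sources used here. Cumulus cells were stripped off with hyaluronidase after maturation, before RNA was extracted. Oocytes with a visible polar body were then kept. A polar body forms late in maturation, and the methods do not say how that selection applied to the early times. How the 0 h oocytes were freed of cumulus and how many were pooled are not given in the sources used here, so handling and maturation time cannot be told apart. Same-numbered libraries were taken as 1 ovary pool, though no label says so.

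A miRNA is a short RNA that guides an Argonaute protein to messenger RNAs that pair with its seed, the bases at positions 2 to 8, and lowers their translation or stability. The fully grown immature oocyte is arrested in meiosis with an intact nucleus, the germinal vesicle. On maturation the germinal vesicle breaks down, and the oocyte then runs largely on stored RNAs until the embryonic genome is activated. Cumulus cells are coupled to the oocyte by gap junctions, through which small molecules pass.

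Levels were measured as counts of mature miRNAs, from reads collapsed by molecular identifier. The table held 1030 known miRNAs and 965 predicted ones, named here by the number they carry in the deposited table (predicted miR-457, for example). Among the predicted ones, 370 had the same counts as another in all 39 libraries. Totals and shares may therefore hold 1 identifier more than once. Total counts were 11985, 68389 and 49916 in the 3 libraries at 0 h. The 9 later libraries held 20180 to 131920 counts, the fewest in replicate 1 at 6 h. Levels are given as a percent of all miRNA counts of a library or as CPM, 10000 CPM being 1% of these counts. A floor of 3 counts stood at 250.3, 43.9 and 60.1 CPM in 0 h replicates 1, 2 and 3. These floors cover counting error only. In such bulk libraries, a lower level in each cell and fewer cells of a type cannot be told apart.

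The predicted miRNAs whose sequences are shown are those that set 1 of the 0 h libraries apart or had some of the smallest p-values, as far as a sequence was at hand. Capitals mark the seed.
predicted miR-457: uCCCCGGCaccuccacca
predicted miR-559: gGCGCGCCcccgccgcgc
predicted miR-318-0: gCGCGCCCccgccgcgcg
predicted miR-485: gGGGAUGUagcucagugg
predicted miR-824: gUCAGGAUggccgaguggucuaagg
No seed was shared among them. Predicted miR-457 was 18 nt long with 72.2% G and C. Predicted miR-559 and predicted miR-318-0 consisted of G and C alone and shared a run of 17 nt, gcgcgcccccgccgcgc, so that reads of one could be counted for the other. Predicted miR-560 had the counts of predicted miR-559 in the libraries compared. It was treated as the same item in naming miRNAs, but each was tested and counted. The letters of predicted miR-485 and predicted miR-824 are like the start of transfer RNAs for alanine and leucine, which was not checked here against an annotation. Predicted miR-457, whose letters end in cca, was not checked against such an annotation either. Whether it is part of a transfer RNA was not tested.

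The 3 libraries at 0 h differed from each other. Replicate 1, the shallowest, was rich in predicted miR-485, which took 3.34% of its counts against 0.162% and 0.174% in replicates 2 and 3. Predicted miR-824 took 1.44% of replicate 1 against 0.102% and 0.0982%. Predicted miR-485 was also high in replicate 3 at 1 h, at 16654 CPM, and in replicate 2 at 6 h, at 12311 CPM. Replicate 3 at 0 h was rich in let-7, a family that rises as cells differentiate: its 10 listed members took 13.9% of counts, against 5.62% and 5.32% in replicates 1 and 2. Among the 9 later libraries the let-7 share was highest in replicate 1 at 6 h, at 10.5%. The same 0 h replicate 3 was poor in the miR-148, miR-152 and miR-200 families, at 0.853% against 4.15% and 2.84%, and in predicted miR-559, at 0.0200% against 0.350% and 0.354%. Known miRNAs made up 40.3%, 38.01% and 52.7% of counts in replicates 1 to 3 at 0 h, and 41.0% to 50.6% in the later libraries. Where leaving out replicate 1 or 3 at 0 h moved a named log2FC by over 1.5 times in fold, its value without that library, from a fit without pairing, is given beside it. How much of such a move came from dropping the pairing was not separated.

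At 0 h, 622 miRNAs were counted in all 3 libraries, 136 known and 486 predicted, and 1093 in at least 1. Detection followed depth, with 693, 1025 and 906 miRNAs in replicates 1 to 3. Brought down to the lowest depth, the 3 libraries were expected to show 693, 681 and 645 miRNAs, and the 9 later ones 629 to 679.

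The most abundant miRNA at 0 h was a predicted one, predicted miR-212, with 6.65%, 10.1% and 6.55% of counts (mean 7.78% ± 2.05, SD, n = 3). Next came miR-16b, a member of the miR-15/16 family that restrains the cell cycle, with 6.43%, 6.29% and 8.60%. Predicted miR-787 took 5.12%, 8.32% and 5.54%. Then followed miR-10b, which is encoded in a Hox gene cluster, with 3.91%, 4.35% and 4.60%. miR-16b ranked above predicted miR-212 in replicate 3 and below it in replicates 1 and 2.

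Some known miRNAs were uneven between the libraries. let-7a-5p took 2.04%, 2.17% and 4.71%. miR-148a, abundant in many epithelia and in oocytes, took 3.72%, 2.53% and 0.677%. The first of these was highest and the second lowest in replicate 3. let-7i (1.27%, 1.25% and 3.56%) and let-7f (1.08%, 1.30% and 3.54%) had the same pattern as let-7a-5p. miR-122, best known from liver, took 1.31%, 1.44% and 2.15%. miR-9-5p, best known from the nervous system, took 1.25%, 1.01% and 1.29%. The 10 leading known miRNAs, with miR-30d and miR-26a among them, summed to 23.0%, 22.5% and 31.9% of counts. The 5 leading predicted miRNAs, with predicted miR-777, 948 and 322, summed to 17.1%, 25.1% and 17.2%.

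**Figure D1:**
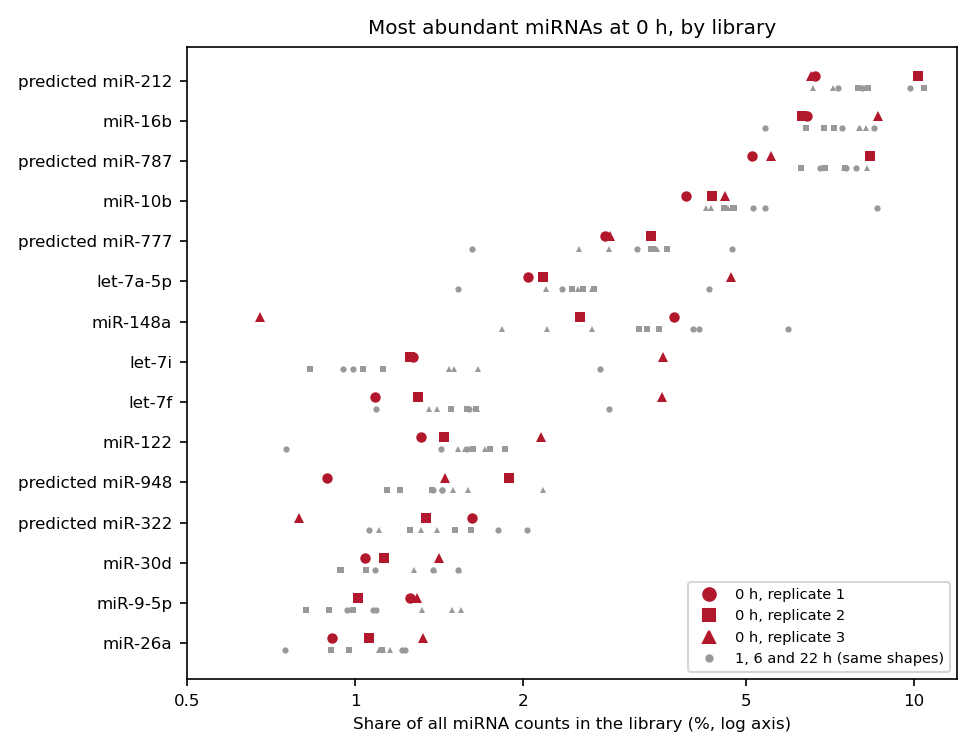
Share of all miRNA counts (%, log axis) of the 10 most abundant known and 5 most abundant predicted miRNAs at 0 h. Red points are the 3 libraries at 0 h, small grey points the 9 later libraries, and shapes mark replicate numbers. In replicate 3 at 0 h, miR-148a stood at 0.677% and let-7i at 3.56%, away from the other 0 h libraries.

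These 15 leaders were all tested at each time, and none passed the threshold used throughout, an adjusted p under 0.05 (edgeR quasi-likelihood test, Benjamini-Hochberg) with an absolute log2 fold change (log2FC) of at least 1. Their log2FC, always later time over 0 h, ran from −0.69 to 0.54 at 1 h, from −0.19 to 1.01 at 6 h and from −0.58 to 0.89 at 22 h. The 95% interval of the log2FC lay wholly within ±1 for 10 of 15 at 1 h, 8 of 15 at 6 h and 13 of 15 at 22 h. For these, a change of more than that size lay outside the interval. For the others, miR-148a among them, it did not.

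The label "oocyte" was checked against markers of cells that could adhere to or surround it. Of the 14 listed miRNAs linked to granulosa and cumulus cells, 10 had a count at 0 h, and together they took 0.868%, 0.755% and 1.36% of counts in replicates 1 to 3 against 0.510% to 1.39% in the later libraries. miR-21-5p led the list, with miR-31 and miR-503-5p behind it, while miR-21-3p, miR-212, miR-450a and miR-708 were at 0. Of 7 blood cell miRNAs, 5 had a count at 0 h, led by miR-150 with 4, 25 and 13 counts, while miR-486 had 5, 2 and 0, miR-223 had 4, 0 and 3, miR-451 had 1 count in all, and miR-144 and miR-142-3p were at 0. Together they took 0.134%, 0.0395% and 0.0321% of replicates 1 to 3, the first of these on 16 counts and above all 9 later libraries, which held at most 0.0776%. Those of endothelium and stroma took 0.1502% to 0.264%, most of it miR-143, with its partner miR-145 at 0. Of a list linked to germline and pluripotency, 4 of 12 members had a count at 0 h, led by miR-34c, for 0.217% to 0.427% of counts. miR-202, with 6, 40 and 76 counts at 0 h, is in both this list and the granulosa and cumulus list. No miRNA that marks the oocyte alone was among the lists. The part of adhering cells in the comparisons was not tested.

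Muscle miRNAs were near the floor at 0 h, at 0.0146% to 0.0501% of counts. miR-206, a skeletal muscle miRNA, had 5, 3 and 2 counts there. It had 296, 610 and 172 counts in the replicate 2 libraries at 1, 6 and 22 h, and 0 to 5 in the 6 other later libraries. Replicate 2 at 0 h thus lacked what set the later replicate 2 libraries apart. Predicted miR-721, chosen after its values were seen, behaved likewise: it had 22, 19 and 19 counts in replicate 2 at 1, 6 and 22 h, and 0 in all libraries at 0 h. miR-184, also chosen after its values were seen, was instead highest in replicate 2 at 0 h too, with 245 counts against 9 and 27.

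**Figure D2:**
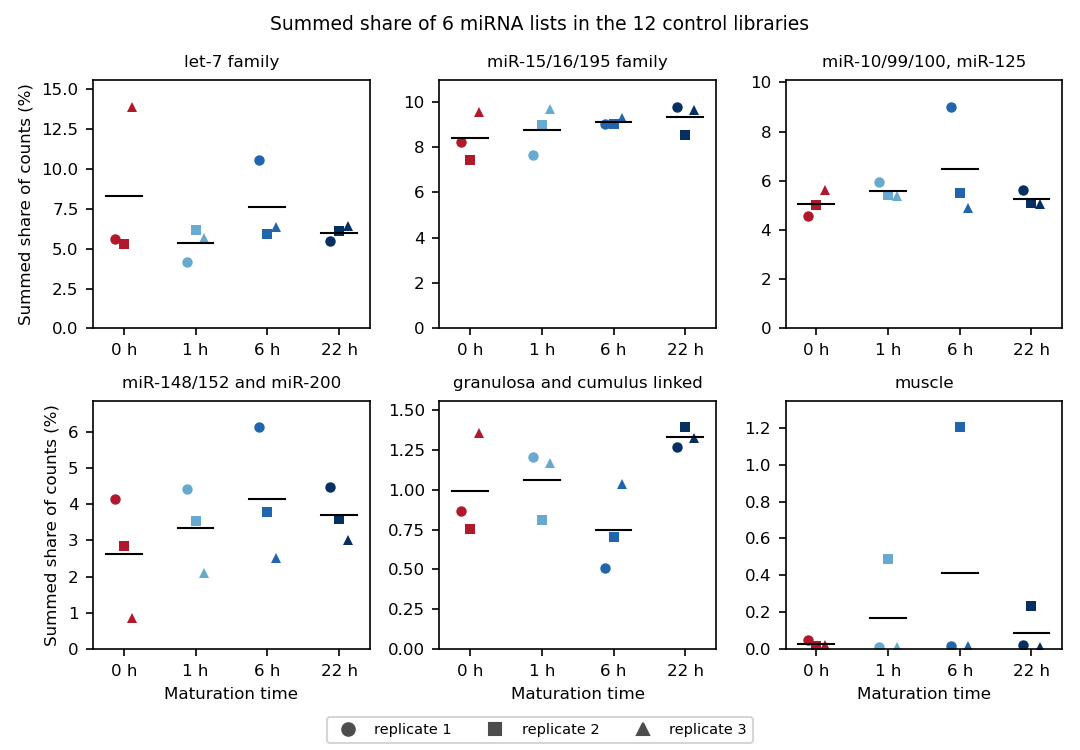
Summed share of counts (%, linear axes from 0) of 6 miRNA lists in each of the 12 libraries, by maturation time. Points are libraries with shapes for replicate numbers, and bars are means of 3. The let-7 list was highest in 0 h replicate 3 (13.9%), and the muscle list stood out in the later replicate 2 libraries, with 1.204% at 6 h.

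Presence and absence at 0 h concerned rare miRNAs. Only 30 miRNAs had a count at 0 h and none in the 9 later libraries, and their counts at 0 h summed to 87. The largest was miR-27a-5p, the passenger arm of miR-27a, with 0, 2 and 12 counts. Conversely, 216 miRNAs were at 0 in all 3 libraries at 0 h and counted later, with 1667 counts in all. The 30 and the 216 are not on the same footing, as 3 libraries were set against 9 and detection followed depth. The largest of them, predicted miR-693, had all of its 181 counts in replicate 3 at 1 h. A count of 0 in the 3 libraries at 0 h does not show absence below the floors given above.

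The first question was what differed after 1 h of culture, a time the study chose to obtain oocytes with a germinal vesicle. Of 409 miRNAs tested, 0 passed the threshold (0%) by edgeR and 0 by DESeq2. An unadjusted p under 0.05 was reached by 16 miRNAs (3.91%), 6 higher (1.47%) and 10 lower (2.44%) at 1 h. The smallest adjusted p was 0.166. Leaving out replicate 1 of both times gave 2 calls of 407 tested, predicted miR-210 lower and predicted miR-485 higher. Leaving out replicate 2 gave 6 of 399, all lower at 1 h and let-7b among them. The 3 later libraries lay wholly above the 3 at 0 h for 7 miRNAs (1.71%) and wholly below for 11 (2.69%). An exact permutation test of 3 against 3 libraries cannot go below p = 0.1.

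The smallest p at 1 h belonged to predicted miR-210, a rare miRNA with 5, 22 and 16 counts at 0 h and 9, 4 and 3 at 1 h. In CPM it stood at 353 ± 55.5 and at 71.2 ± 24.6 (SD, n = 3 each), and the groups did not overlap. Its log2FC was −2.39 (SE 0.47, 95% interval −3.42 to −1.35, edgeR adjusted p = 0.166). Counts this low leave it close to the floor of 3 counts in the shallow 0 h replicate 1. In replicate 3 at 1 h, its 3 counts were no more than the floor.

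Predicted miR-457 was counted 31, 95 and 56 times at 0 h and 54, 53 and 31 times at 1 h, that is 2587, 1389 and 1122 CPM against 590, 856 and 522 CPM. All libraries at 1 h lay below all at 0 h, with a log2FC of −1.38 (SE 0.40, edgeR adjusted p = 0.425). miR-1246, whose known sequence resembles part of a small nuclear RNA, had 11, 24 and 14 counts at 0 h and 19, 10 and 5 at 1 h. It too did not overlap between the groups, with a log2FC of −1.72 (SE 0.48, edgeR adjusted p = 0.425), and without 0 h replicate 1 the log2FC was −0.99.

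2 sets of counts pointed the other way. Predicted miR-559 had 42, 242 and 10 counts at 0 h and 623, 331 and 77 at 1 h, higher in 3 of 3 pairs, with a log2FC of 1.23 (SE 0.37, edgeR adjusted p = 0.425). Predicted miR-835 had 20, 132 and 7 counts at 0 h and 420, 189 and 40 at 1 h, for a log2FC of 1.29 (SE 0.35, edgeR adjusted p = 0.425). Both overlapped between the groups, being low in replicate 3 at either time. Without 0 h replicate 3, and without pairing, the log2FC was 0.37 for predicted miR-559 and 0.64 for predicted miR-835. Predicted miR-318-0, which shares the 17-nt run with predicted miR-559, had 4, 43 and 3 counts at 0 h and 99, 72 and 15 at 1 h.

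**Figure D3:**
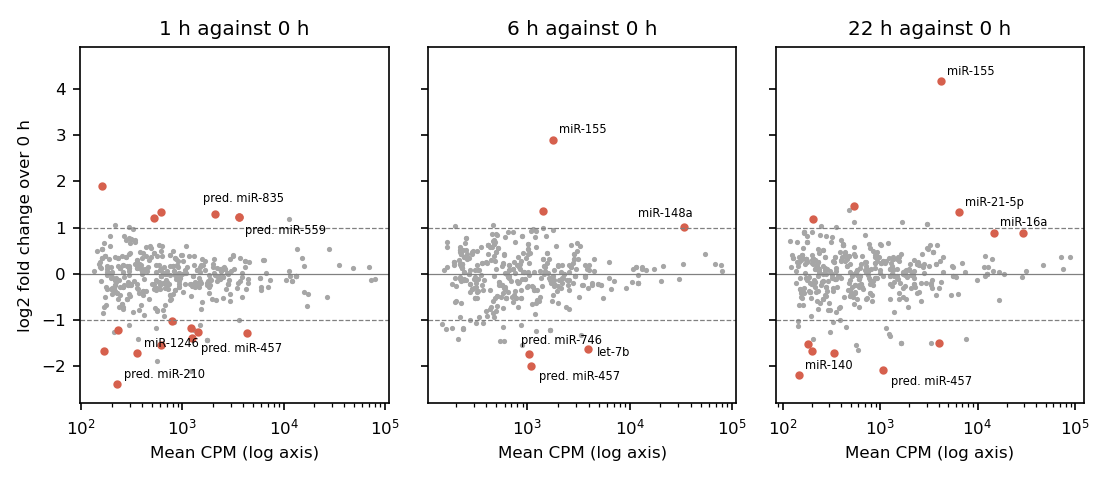
log2 fold change over 0 h against mean TMM-scaled CPM (log axis) for every miRNA tested. Tested were 409 at 1 h, 375 at 6 h and 432 at 22 h. Red points have an unadjusted p under 0.05, dashed lines mark ±1, and the 5 smallest p-values of each time are named (5 distinct sets of counts). No point passed the adjusted threshold, and miR-155 stood highest at 6 and 22 h.

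The time of 6 h was chosen in the study for germinal vesicle breakdown. There 375 miRNAs were tested against the same 0 h libraries, and 0 passed the threshold (0%) by edgeR. DESeq2 called 1, miR-155. An unadjusted p under 0.05 was reached by 6 miRNAs (1.60%), 3 higher (0.800%) and 3 lower (0.800%). The smallest adjusted p was 0.420. Leaving out replicate 1 of both times, with the shallowest library of each, gave 6 calls of 396 tested. Among them were miR-155, predicted miR-559 with its copy predicted miR-560, and predicted miR-835, all higher. Groups did not overlap for 13 miRNAs above 0 h (3.47%) and 11 below (2.93%).

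miR-155, an inflammation-linked miRNA processed from the BIC transcript, had 9, 8 and 25 counts at 0 h, few for a floor of 3. At 6 h it had 77 and 91 counts in replicates 1 and 2 and more in replicate 3. The levels were 751, 117 and 501 CPM at 0 h and 3816, 1773 and 2670 CPM at 6 h, and every library at 6 h lay above every library at 0 h. The log2FC was 2.90 (SE 0.54, 95% interval 1.61 to 4.18, edgeR adjusted p = 0.420), and DESeq2 gave an adjusted p of 0.00149. Over all alternatives the adjusted p ran from 8.33e-06 to 0.9995. At 1 h it had 26, 29 and 10 counts, which overlapped those at 0 h, with a log2FC of −0.45 (SE 0.73) whose sign changed between settings.

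let-7b had 78, 144 and 453 counts at 0 h and 25, 78 and 114 at 6 h. Its levels at 0 h were 6508, 2106 and 9075 CPM, the second of them within the range at 1 h, which was 1837 to 2627 CPM. The log2FC was −1.63 at 6 h (SE 0.52, edgeR adjusted p = 0.982), beside −1.27 at 1 h and −1.50 at 22 h. It was lower than its pair in 2 of 3 pairs at 1 h and 3 of 3 at 6 and 22 h. Without 0 h replicate 3, and without pairing, it stood at −0.96, −1.42 and −1.20 at 1, 6 and 22 h.

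Predicted miR-457 had 7, 22 and 20 counts at 6 h, again below all 0 h libraries, with a log2FC of −1.99 (SE 0.50, edgeR adjusted p = 0.982). Predicted miR-746 had 32, 81 and 45 counts at 0 h and 9, 22 and 19 at 6 h, for a log2FC of −1.74 (SE 0.50, edgeR adjusted p = 0.982). miR-148a had the largest log2FC of the 15 leaders at 6 h, with 446, 1727 and 338 counts at 0 h and 1200, 1793 and 1255 at 6 h. It was higher in 3 of 3 pairs, with a log2FC of 1.01 (SE 0.33, edgeR adjusted p = 0.982). The groups overlapped. Beside 0.54 and 0.89 at 1 and 22 h, the log2FC without 0 h replicate 3 and without pairing was −0.06, 0.44 and 0.21 at 1, 6 and 22 h.

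After 22 h, a time chosen in the study for metaphase II, 432 miRNAs were tested and 0 passed the threshold (0%) by edgeR. DESeq2 called 2, miR-155 higher and predicted miR-457 lower. An unadjusted p under 0.05 was reached by 12 miRNAs (2.78%), 6 higher (1.39%) and 6 lower (1.39%). The smallest adjusted p was 0.370. Leaving out replicate 1 of both times gave 1 call of 435 tested, miR-155. The libraries at 22 h lay wholly above those at 0 h for 18 miRNAs (4.17%) and wholly below for 12 (2.78%).

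miR-155 had 840, 911 and 361 counts at 22 h, which is 6368, 12255 and 3825 CPM, against 751, 117 and 501 CPM at 0 h. It was higher in 3 of 3 pairs, and the lowest library at 22 h stood above the highest at 0 h. The fitted difference was 17.9-fold (log2FC 4.16, SE 0.83, 95% interval 2.18 to 6.14, edgeR adjusted p = 0.370), while DESeq2 gave a log2FC of 4.09 with an adjusted p of 5.46e-05. Over all alternatives the log2FC ran from 2.96, without replicate 2 of both times, to 5.01, without replicate 3. The edgeR call changed with the libraries: without replicate 1 of both times the adjusted p was 4.05e-05. Without 0 h replicate 1 alone, and without pairing, the log2FC was 4.68 and the edgeR adjusted p 0.117. Over all alternatives the adjusted p ran from 1.66e-07 to 0.99.

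miR-21-5p, a miRNA of granulosa and cumulus cells tied to their survival, had 52, 186 and 194 counts at 0 h and 1159, 720 and 716 at 22 h. Levels were 4339, 2720 and 3887 CPM at 0 h and 8786, 9686 and 7587 CPM at 22 h, with no overlap. The log2FC was 1.33 (SE 0.31, 95% interval 0.59 to 2.07, edgeR adjusted p = 0.459). At 1 h (522, 202 and 241 counts) and 6 h (61, 162 and 212 counts) it overlapped 0 h, with log2FC of 0.15 (SE 0.28) and −0.06 (SE 0.35). The summed granulosa and cumulus list, which it leads, took 1.27% to 1.39% of counts at 22 h beside 0.755% to 1.36% at 0 h. miR-21-5p alone took 0.879%, 0.969% and 0.759% at 22 h and 0.434%, 0.272% and 0.389% at 0 h. Among the 6 list members tested at 22 h, 2 had a log2FC above 0 and 4 below, down to −1.68. The passenger arm miR-21-3p was at 0 at 0 h.

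Predicted miR-457 had 33, 36 and 34 counts at 22 h, or 365 ± 117 CPM, against 1699 ± 780 CPM at 0 h (SD, n = 3 each). Its log2FC was −2.08 (SE 0.50, 95% interval −3.26 to −0.90, edgeR adjusted p = 0.459), and DESeq2 gave an adjusted p of 0.0450, within a range of 0.0175 to 0.99 over all alternatives. Side by side, its log2FC over 0 h was −1.38, −1.99 and −2.08 at 1, 6 and 22 h, and all 9 later libraries, at 250 to 856 CPM, lay below the lowest at 0 h, at 1122 CPM. The 3 comparisons share the 0 h libraries, so these values are not independent. Without 0 h replicate 1 and without pairing, the log2FC was −0.90, −1.67 and −1.73.

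miR-140, a cartilage miRNA that is rare here, had 3, 11 and 15 counts at 0 h and 7, 3 and 5 at 22 h. All 9 later libraries held less than 0 h in CPM, at 0 to 99.1 against 160.8 to 300.5 CPM, but the count in 0 h replicate 1 was no more than the floor. The log2FC at 22 h was −2.18 (SE 0.44, edgeR adjusted p = 0.370). miR-1246 had 15, 11 and 12 counts at 22 h and again did not overlap 0 h, with a log2FC of −1.70 (SE 0.51, edgeR adjusted p = 0.764). At 6 h it had 2, 16 and 9 counts and overlapped.

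miR-16a, a sister of the abundant miR-16b, had 186, 652 and 313 counts at 0 h and 2774, 1427 and 1210 at 22 h. It was higher in 3 of 3 pairs, and the groups overlapped. The log2FC was 0.89 (SE 0.25, edgeR adjusted p = 0.764), beside 0.10 (SE 0.20) for miR-16b. Predicted miR-559 had 223, 454 and 251 counts at 22 h and overlapped 0 h.

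**Figure D4:**
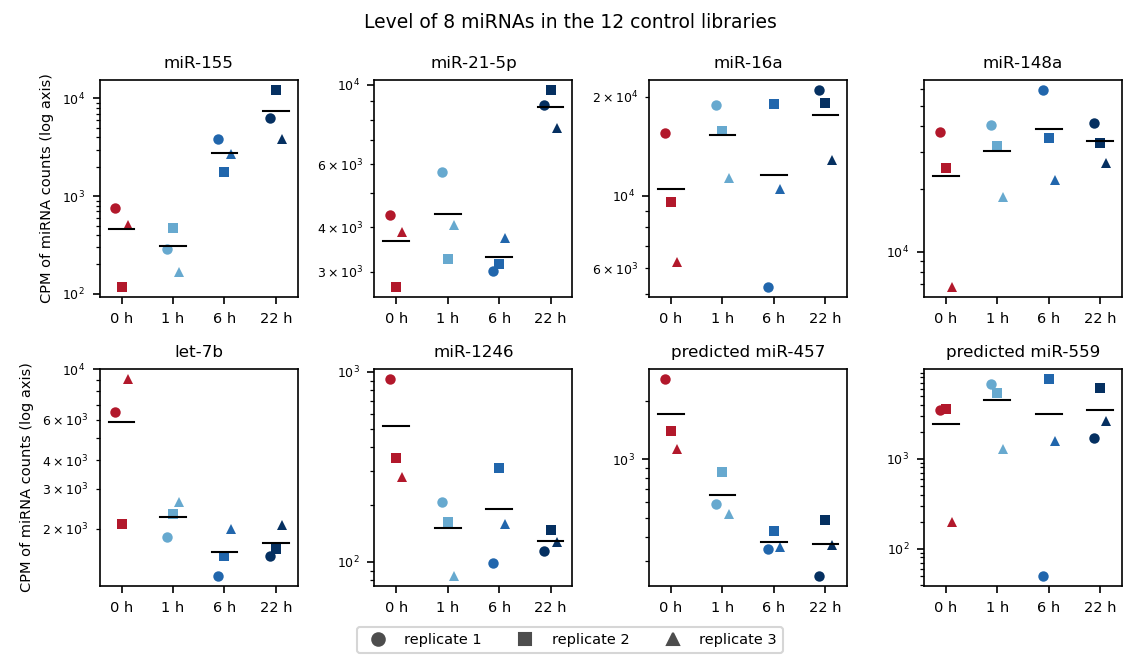
CPM of miRNA counts (log axes, which do not start at 0) of 8 miRNAs in each of the 12 libraries, by maturation time. Points are libraries with shapes for replicate numbers, and bars are means of 3. miR-155 had means of 456, 307, 2753 and 7483 CPM at 0, 1, 6 and 22 h, without passing the edgeR threshold, and predicted miR-457 had means of 1699 CPM at 0 h and 365 CPM at 22 h.

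By family, no member passed the threshold at any time. The let-7 family had 8 of 10 members tested, with a median log2FC of −0.64 at 1 h, −0.09 at 6 h and −0.38 at 22 h, beside −0.04, 0.00 and 0.04 over all miRNAs tested. At 1 h, 7 of the 8 members had a log2FC below 0. At 0 h replicate 3 the family was high, and without that library, and without pairing, its medians were −0.07, 0.57 and 0.32. All 6 members of the miR-15, miR-16 and miR-195 family were tested, with medians of 0.13, −0.07 and 0.25. The miR-148, miR-152 and miR-200 families, 6 of 8 tested, had medians of 0.21, −0.02 and 0.38. The miR-10, miR-99, miR-100 and miR-125 families had medians of −0.20, −0.10 and −0.45. The miR-17-92 cluster and its paralogs, which promote proliferation, had 8 of 15 members tested and medians of −0.08, −0.40 and −0.07. The miR-30 family had medians of −0.16, −0.22 and 0.13, the miR-26 and miR-29 families −0.07, −0.25 and −0.03, and the miR-23, miR-24 and miR-27 clusters 0.07, 0.04 and 0.17. The germline and pluripotency list, 3 of 12 tested, had medians of 0.17, −0.62 and −0.01. Many of these medians turned with 1 library. Of 35 medians, over the lists and times with more than 1 member tested, 18 changed sign without 0 h replicate 3. Without 0 h replicate 1, 5 changed sign, and both fits were without pairing. Without replicate 3 the miR-30 family stood at 0.19, 0.26 and 0.33 and the miR-148, miR-152 and miR-200 families at −0.17, −0.22 and −0.04. The miR-10, miR-99, miR-100 and miR-125 families then stood at 0.12, 0.48 and −0.06, the miR-17-92 cluster at 0.16, 0.02 and 0.13 and the germline and pluripotency list at 0.14, −0.06 and 0.02. Of the miR-181, miR-221 and miR-222 families, 1 member was tested at 22 h and none earlier.

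Of the marker lists, granulosa and cumulus had 6 of 14 members tested, with medians of 0.12, −0.56 and −0.25, and of 0.29, −0.06 and 0.08 without 0 h replicate 3. Blood cells had 1 member tested (0.58, −0.07 and 0.64). Endothelium and stroma had 2, 1 and 2 (0.47, 0.18 and −0.11), and liver and nervous system 2 (−0.28, 0.03 and 0.00). Muscle had none tested. These values depend on the scale. With the totals of deduplicated reads as library sizes, the median over all miRNAs was 0.40 at 1 h, 0.32 at 6 h and 0.64 at 22 h, a common shift that turned most list medians positive. All changes above are relative to the other miRNAs of the library.

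How small a difference the comparisons could show varied with the time. The median SE of the log2FC was 0.45 at 1 h, 0.57 at 6 h and 0.41 at 22 h. The 95% interval lay within ±1 for 109 miRNAs (26.7%) at 1 h, 32 (8.53%) at 6 h and 107 (24.8%) at 22 h. The interval lay wholly beyond ±1 for predicted miR-210 at 1 h, miR-155 at 6 and 22 h and miR-140 at 22 h. The intervals of the other miRNAs held both changes of more and of less than 2-fold, and the 0 calls do not show that levels stayed the same.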

How the data were processed

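Small RNA libraries were made from pooled oocytes with the QIAseq miRNA Library Kit. The authors collapsed reads by molecular identifier with UMI-tools (1.1.1 in the study's methods, 1.1.2 in the submitters' processing notes), mapped them to ARS-UCD1.2 and counted mature miRNAs with miRPro 1.1.4, known ones from miRBase 22.1. The deposited values are whole-number counts, not normalized. Known and predicted tables were joined, and the 12 columns used hold 11985 to 131920 counts.

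Each later time was compared with 0 h in 6 libraries by edgeR 4.0.16 (R 4.3.3): TMM factors, filterByExpr (minimum count 10, total 15), quasi-likelihood F-test with the replicate number as block, Benjamini-Hochberg over all miRNAs tested, and 95% intervals. A call needed an adjusted p under 0.05 and an absolute log2FC of at least 1. The CPM printed were taken over all miRNA counts of a library. Counts of miRNAs without overlap, counts of pairs and the axis of the fold-change figure used CPM scaled by the TMM factors instead. The 2 scales can differ: let-7b at 22 h lay wholly below 0 h on the first and overlapped on the second. DESeq2 1.42.0, other scalings (one by the deduplicated read totals of the study) and filters, and leaving out libraries were alternatives. The fit was tested on simulated data. Replicates of the later times came from separate runs of the experiment, with the ovary pool as batch. For 0 h no source used here says so, and p-values may there measure technical spread.

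Named were the 10 known and 5 predicted leaders at 0 h, the 5 smallest p-values where nothing was called (identical counts once), miR-155 and miR-21-5p, and the leading member of each list. Members, lists and rule were chosen with earlier results of these data known. Known miRNA sequences were not used here.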

Additional observations from a re-analysis of the deposited data

How the results depend on the processing

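The counts of 0 calls held under RLE size factors, total-count scaling, deduplicated-read library sizes, identical counts kept once, 1 fit over 12 libraries and no fold-change threshold. Without the low-count filter, 16 of 1219 miRNAs were called at 1 h. At 6 h it was 1 of 1199, and at 22 h 4 of 1243. Entries with identical counts were each counted here, where a replicate number was left out and in the main fits. Of 409, 375 and 432 miRNAs tested at 1, 6 and 22 h in the main fits, 342, 313 and 358 had distinct counts. DESeq2 called 0, 1 and 2, edgeR's robust option 1 (predicted miR-210), 0 and 0, and separate fits of known and predicted miRNAs 0, 1 (miR-155) and 0. Leaving out 1 replicate number gave 0 to 6 calls at 1 h (6 without replicate 2), 0 to 6 at 6 h (6 without replicate 1) and 0 to 1 at 22 h (1 without replicate 1). The replicate numbers were not shown to pair the samples: correlations of deviations ran from −0.22 to 0.30, 3 of 9 over 0.1, all of replicate 3, and a 0 h library correlated best with its own number in 2 of 9 cases, both replicate 3. With no replicate block there were 0, 0 and 0 calls, with 13, 7 and 21 unadjusted p under 0.05, and likewise 0 calls without 0 h replicate 1 or 3, settings chosen after seeing the data. The 10 most abundant miRNAs at 0 h, predicted ones included, took 39.4% of all counts, and the 10 most abundant known ones 58.9% of known counts (25.8% of all counts).

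Of the log2FC of miRNAs named above, these changed sign under an alternative, and the cause was not tested. Some of their values in the main fit were not given above. At 22 h these were −0.32 for predicted miR-210 and 1.08 for predicted miR-559, the latter 0.091 without 0 h replicate 3 and without pairing. At 6 h they were 0.15 for miR-16a, 0.45 for predicted miR-835, 0.42 for predicted miR-559 and 0.86 for predicted miR-318-0. With deduplicated-read sizes, miR-155 at 1 h was 0.19, miR-21-5p at 6 h 0.33 and predicted miR-210 at 22 h 0.24. With separate fits, miR-21-5p at 6 h was 0.096. Without 0 h replicate 1 and without pairing, miR-155 at 1 h was 0.023 and miR-21-5p at 6 h 0.038. Without 0 h replicate 3 and without pairing, miR-148a at 1 h was −0.058. At 6 h predicted miR-559 was then −0.13 and miR-16a −0.093. Over the fits that left out 1 replicate number, miR-155 at 1 h ran from −1.59 to 0.35, and at 6 h miR-21-5p from −0.30 to 0.061, predicted miR-835 from −1.22 to 1.81, predicted miR-559 from −1.50 to 1.89, miR-16a from −0.41 to 0.84 and predicted miR-318-0 from −0.029 to 1.70. At 22 h predicted miR-210 ran from −1.04 to 0.089 and predicted miR-559 from −0.0098 to 2.10.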
